A study of Homo sapiens with 12 samples.

Results

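Untreated HT1080 cells are the unstimulated starting point of a bulk RNA-seq study of interferon gamma and ionising radiation, and they make up 3 of its 12 libraries. HT1080 is an established human line grown from a fibrosarcoma, a malignant tumour of connective tissue. The 3 libraries were chosen by their label as untreated, so no measured value entered the choice. The other libraries came from the same line given interferon gamma (IFNγ) at 10 ng/ml, a dose of 20 Gy, or both agents together (the combination), with 3 libraries each, and all 12 were harvested at 24 h. The untreated cells received neither agent. Every group is the same line in culture, and the labels do not say whether the 3 libraries of a group came from separate cultures, so the spread between them may be technical. RNA was measured per gene as read counts for 19275 protein-coding genes.

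Mesenchymal cells build and remodel the matrix around them. They carry a vimentin cytoskeleton, bind matrix through integrins, make fibronectin and collagens, and hold to each other through N-cadherin rather than through the E-cadherin, claudins and keratins of an epithelium. Fibrosarcomas are tumours of this lineage. HT1080 in particular is known for an activated NRAS allele, a changed IDH1 allele and loss of the CDKN2A tumour suppressor locus, and for strong pericellular proteolysis, which made it a standard cell for invasion assays. DNA was not measured here, so these alleles stand as background to the RNA levels below.

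Untreated replicates 1, 2 and 3 held 10550510, 10524100 and 9762772 counts. Levels are CPM, counts scaled to a library total of 1000000 after TMM scaling, an edgeR step that sets the bulk of genes equal between libraries. Its factor was 1.01 in each of the 3 libraries, so the scaling moved their levels little. Where genes are set against each other, the mean CPM was divided by the kilobases of joined exons, written RPKM here. A gene with no count in any of the 3 libraries may still have had up to 0.0963 CPM, the level that 3 counts over the group would give, and this limit covers counting error only.

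Untreated replicate 1 stood apart from the other pair. It held at least 1 count for 15308 genes, against 14301 in replicate 2 and 14191 in replicate 3, and 390 genes were counted in that library alone among all 12, against 30 and 22 genes in replicates 2 and 3 and 36 to 142 genes in the treated libraries. These 390 genes shared only 478 counts, with no gene above 4. Among the 9140 genes with at least 100 counts per library on average and a known transcript, replicate 1 deviated from the other pair by GC content, with a median log2 ratio of -0.10 in the quintile of genes lowest in GC and 0.10 in the quintile highest in GC. Spearman's rho between GC content and that deviation was 0.57 across genes, which share the library and are not independent. By exon length, replicates 1 and 2 deviated in opposite directions, with rho of -0.26 and 0.28, against 0.02 in replicate 3. The 85 detected ribosomal protein genes moved as a block in the same 2 libraries. Of these 85, 80 lay above the other pair in replicate 1, 0 in replicate 2 and 36 in replicate 3. Their median log2 ratios were 0.07, -0.06 and -0.003. Such a shift was not particular to ribosomal proteins. Of 26 actin, tubulin and actin binding genes, 23 lay above the other pair in replicate 1 and 5 in replicate 2. Among 17 glycolysis enzymes these numbers were 14 and 2. Not every group shifted so, with 8 and 10 of 16 chaperones and 95 and 102 of 200 ZNF zinc finger genes. Whether GC content or length underlies these shifts was not tested. Whether extraction, library preparation or sequencing set replicate 1 apart was not tested. The numbers of genes with no count are therefore given with and without that library.

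**Figure D1:**
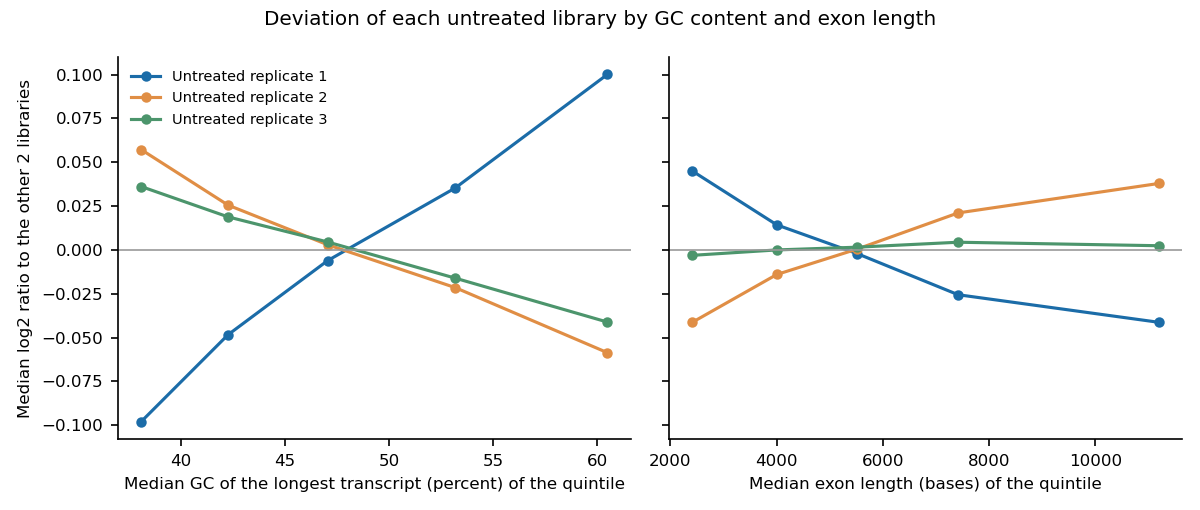
Median log2 ratio of each untreated library to the mean of the other 2 (y axis) for genes split into quintiles by the GC content of the longest transcript (left, percent) and by joined exon length (right, bases); each point is 1 quintile of the genes with at least 100 counts. Replicate 1 runs upward with GC, from -0.10 to 0.10, and the other pair runs the opposite way.

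A core of 11658 genes (60.5% of the table) reached at least 1 CPM. At the low end, 3222 genes (16.7%) had no count in any of the 3 libraries and a further 4395 averaged under 1 CPM. Between these and the top lay 2582 genes at 1 to 10 CPM, 6779 at 10 to 100 CPM and 2210 at 100 to 1000 CPM. Only 87 genes passed 1000 CPM, and they held 18.2% of all counts. The class of 100 to 1000 CPM held 52.7% of counts, more than any other class. Without replicate 1 the number of genes with no count was 4394, while leaving out replicate 2 gave 3509 and leaving out replicate 3 gave 3461, so replicate 1 moves this number more than the other 2 libraries do. Of the 3222 genes, 1914 (59.4%) had no count in any of the 12 libraries; without untreated replicate 1, 2304 of 4394 genes had none in the other 11. The median coding length of the 1914 genes was 933 bases, against 1542 bases in the genes of 10 to 100 CPM.

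**Figure D2:**
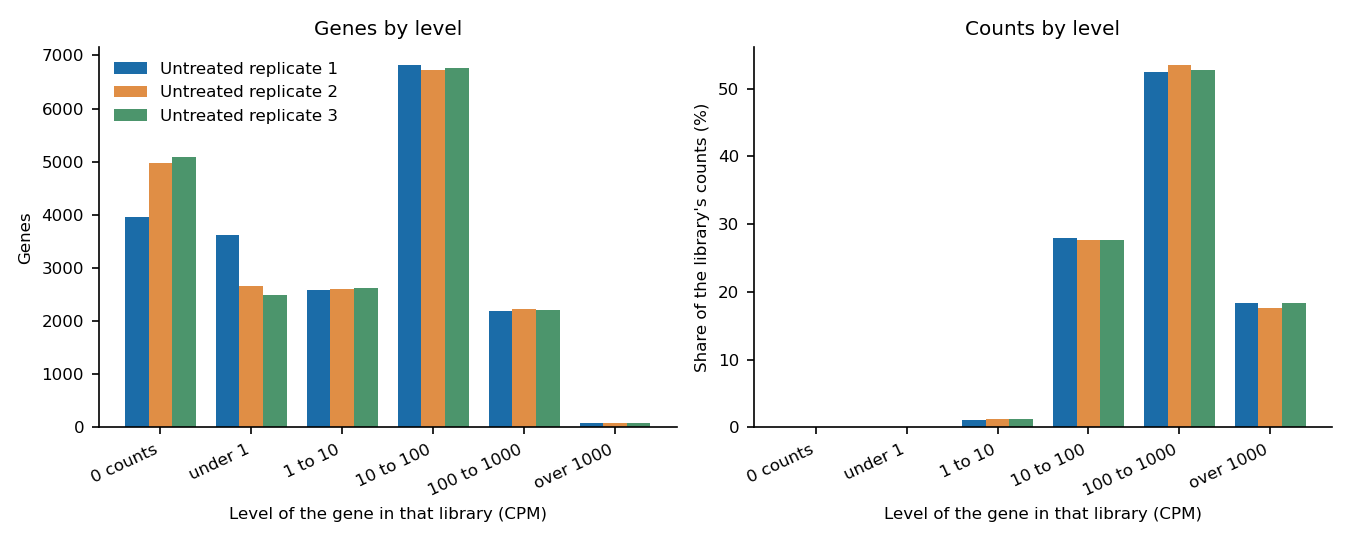
Number of genes (left) and share of the library's counts in percent (right) by the level of the gene in CPM, with 1 bar per untreated library. The 3 libraries nearly coincide from 1 CPM upward, whereas replicate 1 has 3967 genes without a count, against 4974 in replicate 2 and 5084 in replicate 3.

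Counts were not concentrated in a handful of genes. The 10 genes with most counts held 5.73% ± 0.048 of the library (SD, n = 3), the top 100 held 19.5% ± 0.14 and the top 1000 held 53.05% ± 0.100. MT-CO1, a mitochondrially encoded subunit of cytochrome c oxidase, led with 10062, 10307 and 10261 CPM in replicates 1 to 3. The 8 mitochondrially encoded genes in the table were the 8 highest by RPKM, and together they held 3.58% ± 0.047 of counts (SD, n = 3). EEF1A1, the factor that brings aminoacyl-tRNA to the ribosome, came next with 7266, 7290 and 7579 CPM. Reads of EEF1A1, the actins and other genes with many processed copies may have been shared between copies by the counting, which the sources used here do not describe.

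Per kilobase the highest nuclear gene was TMSB10, a small actin-sequestering thymosin, at 1841 ± 69.6 RPKM (SD, n = 3). It was followed by the glycolytic enzyme GAPDH (1706 ± 61.7 RPKM), the cytoplasmic actins ACTB (1576 ± 66.7 RPKM) and ACTG1 (1556 ± 77.5 RPKM), and EEF1A1 (1240.5 ± 29.2 RPKM). RPS2 of the small ribosomal subunit (1032 ± 33.4 RPKM), the ferritin light chain FTL (1010.3 ± 56.1 RPKM) and vimentin, VIM (1005 ± 25.4 RPKM), completed the leading group. The SDs of ACTB and ACTG1 exceed the gap between their means, although ACTB was the higher of the 2 in each of the 3 libraries. RPS2 was likewise above VIM in each library. FTL was the highest of RPS2, FTL and VIM in replicate 1 and the lowest in replicates 2 and 3. Its place among them is therefore not resolved by 3 libraries. With coding length in place of exon length, 12 of the 15 highest genes were shared, but the 15 by exon length include the 8 mitochondrially encoded genes. Among nuclear genes TMSB10 kept rank 1 and VIM rank 8, whereas FTL moved from rank 7 to 28. HSP90AB1 fell from 10 to 78 and EEF2 from 12 to 88, while RPL41 rose from 43 to 4 and DHRS2 from 52 to 9. The order of nuclear genes per kilobase therefore depends on the length used.

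The core promoters of the 87 genes above 1000 CPM were set beside those of lower genes, since promoter sequence was not used to set the level classes. A TATA box is a short AT-rich element upstream of the start site that positions the transcription machinery, and it is the exception among human promoters, most of which are GC-rich. RefSeq windows on GRCh38.p14, from 250 bases before to 50 bases after the start, were found for 71 of the 87 genes. TATAA on the gene's strand in the 50 bases before the start was present in 20% of the 100 windows of these genes and in at least 1 window of 20 genes. The share was 3.605% of 2774 windows for genes of 100 to 1000 CPM, 1.87% of 8294 windows for genes of 10 to 100 CPM, and 4.74% of all 35116 windows in the table. The same letters on the other strand (TTATA) were in 6%, 1.66%, 1.00% and 2.63% of these windows. Genes below 10 CPM matched a window in 73.1% to 78.2% of cases, under the 80% set as a minimum, and were not analysed. The median ratio of observed to expected CpG was 0.861, 0.856 and 0.831 in the classes from high to low and 0.579 over all windows. These are matches of letters, not mapped sites. The window of VIM had 48% GC and a ratio of observed to expected CpG of 0.584. The medians of the class above 1000 CPM were 65.2% and 0.861. Whether the cells used the start on which that VIM window is built was not tested. The 4 windows below show a TATAA near the start in TMSB10, EEF1A1 and fibronectin, FN1, beside that of VIM, whose searched bases hold none. Each runs 5′ to 3′ along the gene, with TATAA in capitals where the search found it (30 bases before the start in TMSB10 and 28 in EEF1A1 and FN1); the windows lie at chr2:84905406-84905705 on the plus strand (TMSB10), chr6:73520983-73521282 on the minus strand (EEF1A1), chr2:215436019-215436318 on the minus strand (FN1) and chr10:17227991-17228290 on the plus strand (VIM).
TMSB10: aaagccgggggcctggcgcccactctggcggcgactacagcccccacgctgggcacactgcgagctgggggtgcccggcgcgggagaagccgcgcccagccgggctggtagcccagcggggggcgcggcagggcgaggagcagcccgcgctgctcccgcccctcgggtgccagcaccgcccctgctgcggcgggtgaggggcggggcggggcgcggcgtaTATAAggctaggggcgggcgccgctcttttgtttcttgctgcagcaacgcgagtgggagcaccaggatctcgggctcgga
EEF1A1: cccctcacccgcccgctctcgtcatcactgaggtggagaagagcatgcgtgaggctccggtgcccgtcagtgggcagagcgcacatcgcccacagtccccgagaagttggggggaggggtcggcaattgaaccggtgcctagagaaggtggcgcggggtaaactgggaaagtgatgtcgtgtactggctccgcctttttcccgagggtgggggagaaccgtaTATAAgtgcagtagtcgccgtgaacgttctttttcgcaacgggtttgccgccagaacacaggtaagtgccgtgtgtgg
FN1: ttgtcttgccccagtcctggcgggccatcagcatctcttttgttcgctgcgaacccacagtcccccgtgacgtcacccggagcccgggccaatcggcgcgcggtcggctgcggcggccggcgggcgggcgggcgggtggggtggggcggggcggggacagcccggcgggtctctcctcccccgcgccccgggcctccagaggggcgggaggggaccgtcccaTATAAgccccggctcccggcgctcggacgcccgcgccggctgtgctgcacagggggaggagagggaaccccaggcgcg
VIM: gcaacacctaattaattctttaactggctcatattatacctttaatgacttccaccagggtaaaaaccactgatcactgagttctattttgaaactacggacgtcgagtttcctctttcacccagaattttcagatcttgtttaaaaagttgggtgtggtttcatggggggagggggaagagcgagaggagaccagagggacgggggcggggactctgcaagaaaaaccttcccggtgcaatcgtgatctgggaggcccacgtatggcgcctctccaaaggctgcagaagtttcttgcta
EEF1A1 and FN1 belong to the 20 genes above 1000 CPM with a TATAA, whereas TMSB10, the highest nuclear gene per kilobase, averaged 913 CPM and does not. The 20 genes also included the chaperones HSPA8 and HSP90AA1, the elongation factor EEF2, the nucleolar protein NPM1, the matrix receptor subunits ITGB1 and ITGA6, the surface peptidase ANPEP and the reductase DHRS2. DHRS2 had 2483, 2390 and 2321 CPM and ANPEP had 1159, 1131 and 1100 CPM in replicates 1 to 3.

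The labelled identity was checked against marker genes. Of 24 mesenchymal markers, 16 reached 1 CPM and 10 reached 100 CPM. VIM had 5312, 5050 and 5188 CPM in replicates 1 to 3. CD44, the hyaluronan receptor, averaged 1682 ± 27.3 CPM, and FN1, the main fibrillar adhesion glycoprotein, averaged 1631 ± 52.9 CPM (SD, n = 3). The receptor kinase AXL (1172 ± 31.3 CPM), the collagen-binding glycoprotein SPARC (1008 ± 40.4 CPM) and the surface peptidase MME (502 ± 18.9 CPM) were also high. N-cadherin, CDH2, averaged 168 ± 7.89 CPM, and the mesenchymal cadherin CDH11 48.8 ± 1.23 CPM.
The list was not uniform. Interstitial collagen chains and several fibroblast markers were low or uncounted: COL1A1 averaged 6.12 ± 0.537 CPM and COL1A2 1.60 ± 0.155 CPM, and over the 3 libraries together COL3A1 had 5 counts, the fibroblast activation protein gene FAP 3, the surface glycoprotein THY1 2, the receptor PDGFRA 2 and POSTN 1. The small proteoglycan genes DCN and LUM had 0 counts. The nucleotidase NT5E had 15 counts in all. These genes define many normal fibroblasts and stromal cells, and the libraries hold the vimentin, fibronectin and N-cadherin side of the mesenchymal list without them.

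Of 11 transcription factors known for driving epithelial to mesenchymal transition, 8 reached 1 CPM. By RPKM the highest were FOXC2 (10.2 ± 0.366), TWIST2 (9.98 ± 0.547), ZEB1 (9.92 ± 0.542) and SNAI2 (8.64 ± 0.361), whose levels per kilobase overlap within their SDs for the first 3. In CPM, ZEB1 was the most counted of them at 85.8 ± 4.69. PRRX1 and PRRX2, regulators of fibroblast identity, had 3 and 2 counts.
Epithelial genes were mostly at the floor, with exceptions among keratins. Only 5 of 20 epithelial markers reached 1 CPM. KRT8 had 258, 236 and 244 CPM and its partner KRT18 had 149, 146 and 145 CPM in replicates 1 to 3. The desmosomal plakin DSP averaged 34.3 ± 0.448 CPM. E-cadherin, CDH1, and EPCAM had 1 count each over the 3 libraries, and ESRP1, ELF3 and KRT14 had 0. KRT81, a hair keratin, averaged 619 ± 56.4 CPM and was the most counted keratin of the 55 in the table, of which 10 reached 1 CPM. KRT81 and KRT86 have near-identical stretches and their split is uncertain.

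Other lineages were checked in the same way. None of 9 liver markers reached 1 CPM. Skeletal muscle had 1 of 12 above 1 CPM, the embryonic myosin MYH3 (9.31 ± 1.16 CPM), with MYOD1 at 1 count and MYOG at 0. Blood and immune markers had 2 of 16, led by LCP1, an actin-bundling protein of leukocytes that many tumour lines also make, at 245, 241 and 242 CPM, while the pan-leukocyte gene PTPRC had 4 counts and CD3E and CD14 had 0. Endothelial markers had 2 of 10, TIE1 at 49.7 ± 4.30 CPM and TEK at 1.03 ± 0.336 CPM, with 1 count for CDH5 and 8 for PECAM1. Among 14 neural markers, 5 passed, headed by the neuronal tubulin TUBB3 at 168 ± 12.99 CPM. Of 13 cartilage, bone and fat markers, SOX9, the master factor of cartilage, averaged 136 ± 5.11 CPM, yet its cartilage targets COL2A1 and ACAN had 2 counts and 1 count. In 8 of 11 smooth muscle and contractile markers the level passed 1 CPM, with tropomyosin TPM2 highest per kilobase at 65.6 ± 1.73 RPKM and the smooth muscle actin ACTA2 at 7.77 ± 0.408 CPM. In bulk RNA, fewer cells of a kind and less RNA per cell cannot be told apart.

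**Figure D3:**
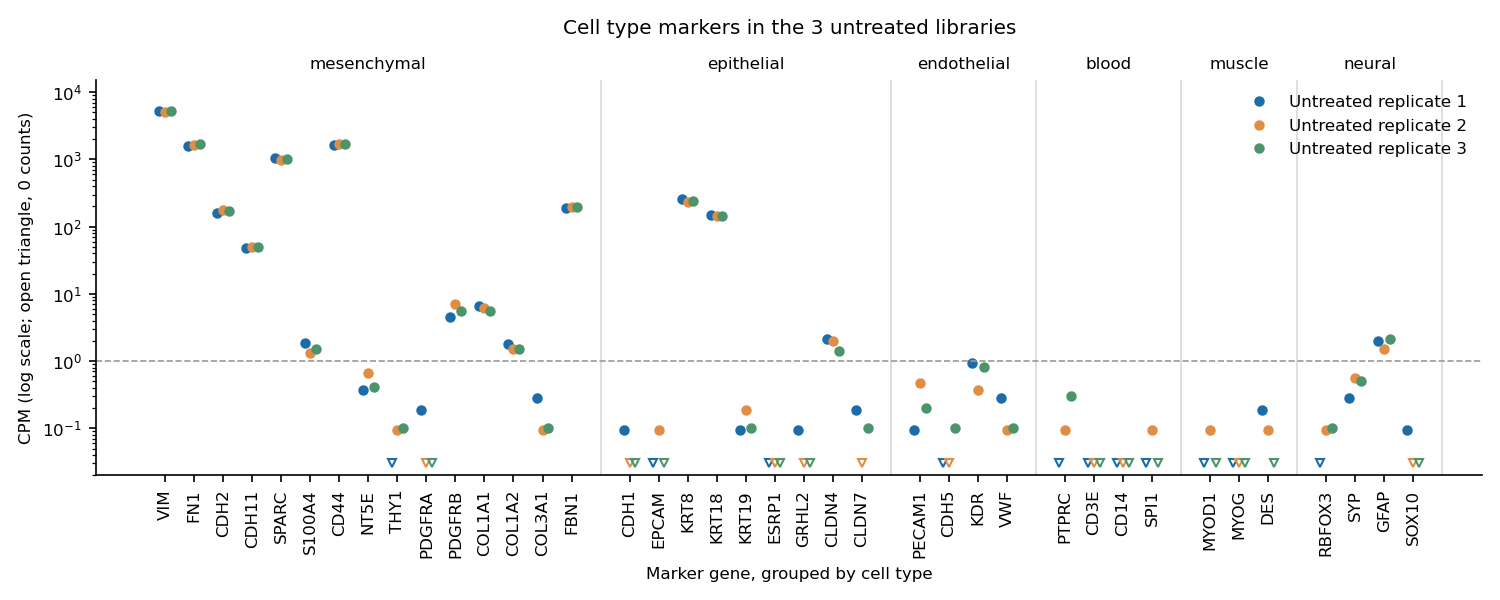
Level in CPM (log axis) of marker genes of 6 cell types in the 3 untreated libraries, with 1 filled point per library and an open triangle where a library had 0 counts; the dashed line is 1 CPM. VIM, FN1, SPARC and CD44 sit near or above 1000 CPM in all 3 libraries, KRT8 and KRT18 above 100 CPM, and the endothelial, blood and muscle markers plotted below 1 CPM; LCP1, TIE1, TEK and MYH3 of the same lists, which passed 1 CPM, are not plotted.

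Surface receptors and their ligands came next in the order of roles. Of 40 receptor tyrosine kinases, 22 reached 1 CPM and 7 reached 100 CPM. AXL, the receptor for GAS6, was highest per kilobase at 227 ± 6.07 RPKM. It was followed by the hepatocyte growth factor receptor MET (64.9 ± 1.27 RPKM), the ephrin receptor EPHA2 (58.9 ± 3.44 RPKM), the epidermal growth factor receptor EGFR (19.0 ± 0.5996 RPKM) and the collagen receptor DDR2 (18.5 ± 1.02 RPKM). MET and EPHA2 lie further apart than their SDs, whereas EGFR and DDR2 do not. NTRK2 had 0 counts, and ALK, FLT3, NTRK3 and PDGFRA had 2 each.
Among 9 VEGF and PDGF ligands, 6 reached 1 CPM, with VEGFC at 43.7 ± 1.02 RPKM and VEGFA, the main driver of vessel growth, at 277 ± 5.49 CPM. Of 29 ligands of the TGF-beta superfamily, TGFB1 led at 58.4 ± 3.30 RPKM, followed by the stress-responsive GDF15 at 40.6 ± 2.61 RPKM, and 10 reached 1 CPM. WNT5A (65.6 ± 1.86 CPM) and WNT7B (36.6 ± 3.93 CPM) were the only WNT ligands of 19 above 10 CPM, alongside 8 of 10 frizzled receptors above 1 CPM. FGF5 and FGF2 averaged 31.7 ± 0.582 and 29.2 ± 3.90 CPM, and the other FGF ligands lay below 10 CPM. In the Hedgehog pathway no ligand exceeded 2 counts, the ligand-binding inhibitor HHIP had 324, 350 and 350 CPM, and the target gene GLI1 had 15 counts.

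The RAS pathway was expressed almost whole, with 30 of 33 genes at or above 1 CPM. NRAS averaged 189 ± 10.2 CPM. Its feedback and target genes were the highest of the list per kilobase: the AP-1 subunit FOSL1 at 195 ± 9.16 RPKM, cyclin D1, CCND1, at 162 ± 2.07 RPKM and PHLDA1 at 128 ± 6.18 RPKM. IDH1, the cytosolic isocitrate dehydrogenase, averaged 92.4 ± 4.999 CPM.
Of 25 cell cycle inhibitors and tumour suppressors, 20 reached 1 CPM. The retinoblastoma gene RB1 averaged 166 ± 6.45 CPM and the CDK inhibitor CDKN1A 112 ± 8.11 CPM. CDKN2A had 1 count, in replicate 1, and its neighbour CDKN2B had 0. MTAP, the methionine salvage gene beside them on chromosome 9, had 33, 30 and 33 counts (3.09 ± 0.263 CPM). Along the same arm, FOCAD had 2420 counts, KLHL9 had 3157 and CAAP1 had 875 over the 3 libraries. Of 16 genes from IFNB1 to IFNA1, KLHL9 was the only gene with a count, and IFNE, just beyond them, had 39.
Telomerase, which keeps tumour cells dividing, was measurable: TERT, its catalytic subunit, had 6.09, 8.28 and 6.09 CPM. MYC averaged 49.1 ± 0.990 CPM, SOX2 had 1 count and NANOG had 0.

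Genes that degrade the matrix were unevenly counted. In the plasminogen system, which turns a serum zymogen into a broad protease at the cell surface, 8 of 9 genes reached 1 CPM and 7 reached 100 CPM. The activator PLAU had 693, 686 and 685 CPM in replicates 1 to 3, a spread of 0.614% of its mean. Its receptor PLAUR averaged 166 ± 11.95 CPM and the second activator PLAT 156 ± 4.89 CPM. ANXA2 and S100A10, which together bind plasminogen at the membrane, had 2246 ± 25.4 and 224 ± 1.89 CPM. Plasminogen itself, PLG, a liver product, had 1 count.
Among 23 matrix metalloproteinases, MMP14, the membrane-bound collagenase that activates MMP2, stood first at 276 ± 6.22 RPKM, against 19.6 ± 1.15 RPKM for MMP2. MMP9 had 9 counts. TIMP2, the inhibitor that bridges MMP14 and MMP2, averaged 388 ± 11.2 CPM. ADAM9 was highest of 39 ADAM and ADAMTS proteases at 62.5 ± 5.08 RPKM.
Of 44 collagen chains, 19 reached 1 CPM. COL6A3, of the microfibrillar collagen VI, was far ahead at 3317, 3332 and 3256 CPM, or 168 ± 2.06 RPKM, followed by the basement membrane chain COL4A1 at 38.9 ± 0.297 RPKM. Laminins, the basement membrane trimers, had 9 of 12 genes above 1 CPM, with LAMB3 at 135 ± 3.33 RPKM and LAMC1 at 98.8 ± 1.91 RPKM. Integrin subunits had 16 of 26, with ITGB1 at 299 ± 6.15 RPKM and its partner ITGA6 at 191 ± 9.24 RPKM.

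Metabolic and housekeeping families were mostly expressed. All 20 citric acid cycle enzymes in the table passed 10 CPM, and 20 of 26 glycolysis enzymes passed 1 CPM. Behind GAPDH, the glycolysis enzymes ENO1 (536 ± 16.8 RPKM), LDHA (432 ± 5.26 RPKM) and PKM (308 ± 4.28 RPKM) were highest, and the testis forms PGK2 and LDHC had 0 counts. By coding length LDHA was above ENO1, at ranks 15 and 17 among nuclear genes. The glucose carrier SLC2A1 averaged 277 ± 16.4 CPM, and the lactate exporter SLC16A3 304 ± 21.5 CPM. Ribosomal proteins had 85 of 89 genes above 1 CPM and held 5.75% ± 0.185 of counts (SD, n = 3), with replicate 1 above the other pair in 80 of the 85, as given above. Per kilobase of joined exons, chaperones were led by HSP90AB1 (835 ± 8.74 RPKM), HSPA8 (569 ± 9.21 RPKM) and HSP90AA1 (533 ± 5.89 RPKM). By coding length their ranks among nuclear genes were 78, 47 and 84, which puts HSPA8 first, so the order depends on the length used. The small heat shock protein HSPB1, abundant in many cultured cells, had only 19 counts, and CRYAB had 2.
Detoxification was uneven: GSTO1 and GSTP1 averaged 165 ± 2.97 and 156 ± 10.9 CPM, whereas 18 of 22 UDP glucuronosyltransferases had 0 counts (19 without replicate 1). The sterol synthesis enzyme CYP51A1, at 209 ± 7.28 CPM, was the only cytochrome P450 of 55 above 100 CPM. The drug efflux pump ABCB1 had 1 count and ABCC1 averaged 104 ± 1.87 CPM. For metallothioneins, small zinc-binding proteins, MT2A had 355, 293 and 304 CPM while 7 of the 11 genes had 0 counts (8 without replicate 1).

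**Figure D4:**
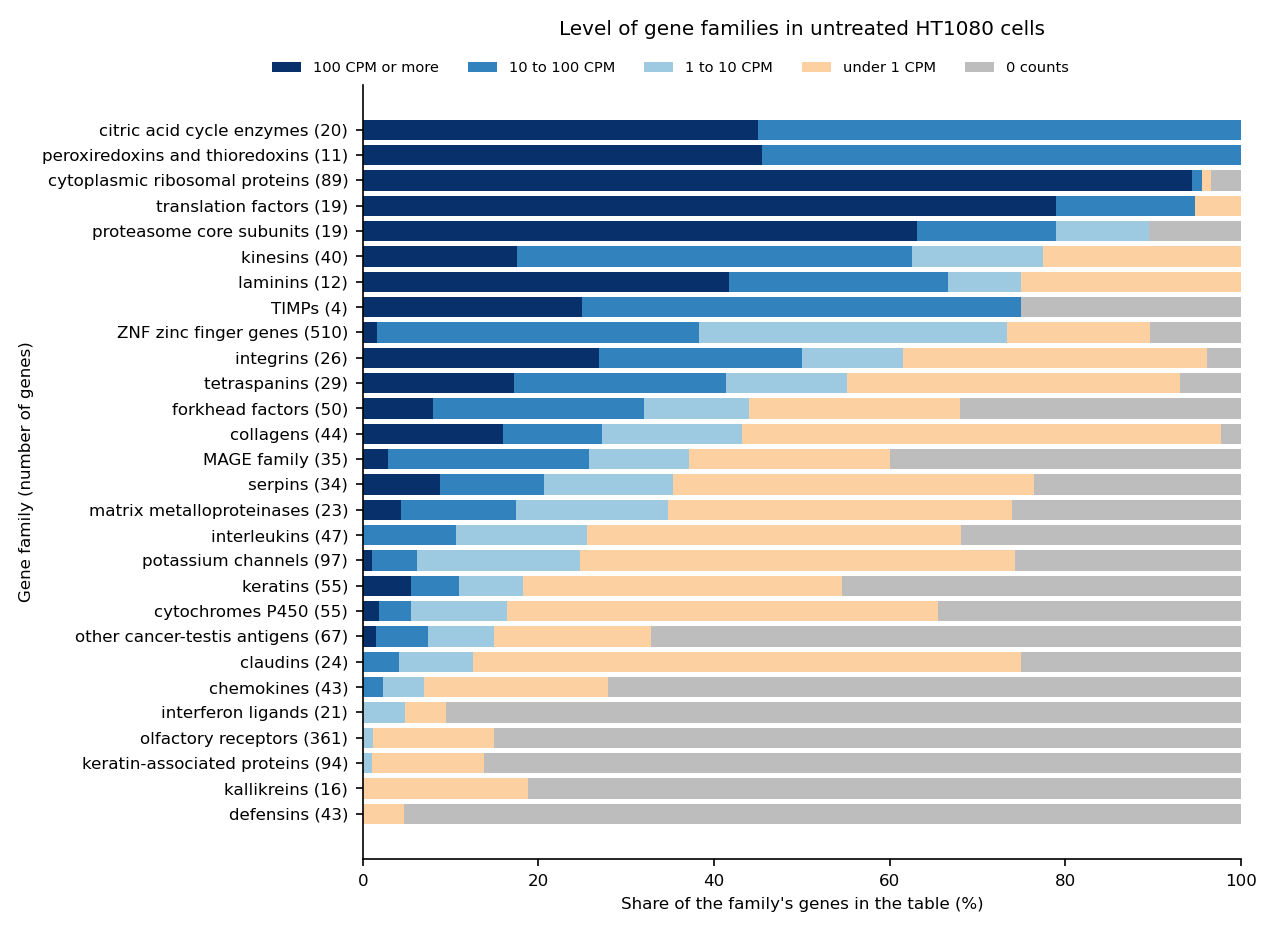
Share of each gene family (percent of its genes in the table, number in brackets) by level in untreated cells, from 100 CPM or more (dark blue) to 0 counts in all 3 libraries (grey). Families run from the citric acid cycle enzymes, all above 10 CPM, to the defensins, of which 41 of 43 had 0 counts (42 without replicate 1).

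HOX genes, which encode position along the body axis, were widely counted. HOXB9 averaged 57.7 ± 1.32 CPM, HOXA9 43.2 ± 3.603 CPM and HOXB2 37.04 ± 2.37 CPM. At least 1 CPM was reached by 7 of 11 HOXA, 8 of 10 HOXB, 7 of 9 HOXC and 5 of 9 HOXD genes. FOXD1, a forkhead factor of stromal progenitors, averaged 206 ± 7.51 CPM, and FOXM1, the mitotic forkhead factor, 214 ± 10.4 CPM. GATA4, GATA5 and GATA1 had 0 counts, and GATA6 averaged 13.2 ± 1.32 CPM.
Cancer-testis antigens are normally restricted to the germ line and are often switched on in tumours. Of 35 MAGE genes, 13 reached 1 CPM, with MAGEB2 at 114, 116 and 117 CPM. MAGEA3 and MAGEA6 averaged 87.6 ± 3.77 and 91.3 ± 2.42 CPM, but they are near-identical and the split between them is uncertain. Among 67 other antigens of this kind 45 had 0 counts (47 without replicate 1), while SSX1 averaged 117 ± 1.27 CPM, PRAME 96.4 ± 3.55 CPM, CTAG2 79.0 ± 5.76 CPM and PAGE5 56.5 ± 1.07 CPM. SSX and CTAG members also have close copies.

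Immune ligands and receptors were mostly low. IL1B, an inflammatory cytokine, had 80.05, 74.8 and 75.1 CPM, and the neutrophil attractant CXCL8 had 65.7, 72.2 and 68.2 CPM. Of 47 interleukin genes, 12 reached 1 CPM, 5 reached 10 CPM and 15 had 0 counts. Chemokines and interferons were emptier. No count was found for 31 of 43 chemokine genes, and only CXCL8 passed 10 CPM. Among 21 interferon ligands 19 had 0 counts, IFNB1 included. Without replicate 1 the numbers of genes with 0 counts were 22, 33 and 20 in these 3 families. TLR4, the endotoxin receptor, averaged 63.01 ± 1.47 CPM, and TLR2 had 0 counts. HLA-E, which presents peptides to natural killer cells, averaged 66.2 ± 2.10 CPM, though it has close copies.

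The families of restricted tissues were close to empty. No count was found for 307 of 361 olfactory receptor genes (85.0%), 81 of 94 keratin-associated protein genes, 41 of 43 defensins and 13 of 16 kallikreins. Without replicate 1 the numbers were 338, 87, 42 and 15. Olfactory receptors with at least 1 count numbered 44 in replicate 1, against 17 and 18 in replicates 2 and 3. Only 10 of them reached 10 counts over the 3 libraries, and 9 of these 10 belong to the OR51 and OR52 genes beside the beta-globin locus; the tenth is OR2W3, on chromosome 1, with 62 counts.
That stretch of chromosome 11 was followed gene by gene, and it was chosen after its values were seen. Globin genes encode the chains of haemoglobin and are used one after another in red cell development, with HBE1 in the embryo and HBG1 and HBG2 in the fetus. HBE1 had 203, 185 and 175 counts in replicates 1 to 3, and HBG2 had 135, 143 and 130. HBG1, HBD and HBB had 0, 0 and 13 counts, though HBG1 and HBG2 are near-identical and their split is uncertain. Beyond HBE1, on the side away from HBB, OR51B4 had 57, 47 and 49 counts and OR52D1 had 17, 21 and 18. From HBB to OR52D1, 11 of 13 genes had more than 3 counts and all 8 olfactory receptors among them had at least 10. On the HBB side, from OR51D1 to OR51V1, 1 of 18 genes had more than 3 counts, and on the far side 0 of 4 did. OR51B5 had 44, 50 and 42 counts, but it had no match in the annotation and is not among the 13. HBE1, HBG2, OR51B4 and OR52D1 had counts of like size in all 3 libraries, replicates 2 and 3 included. Whether the counts come from separate transcripts or from reads running through the stretch was not tested.

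**Figure D5:**
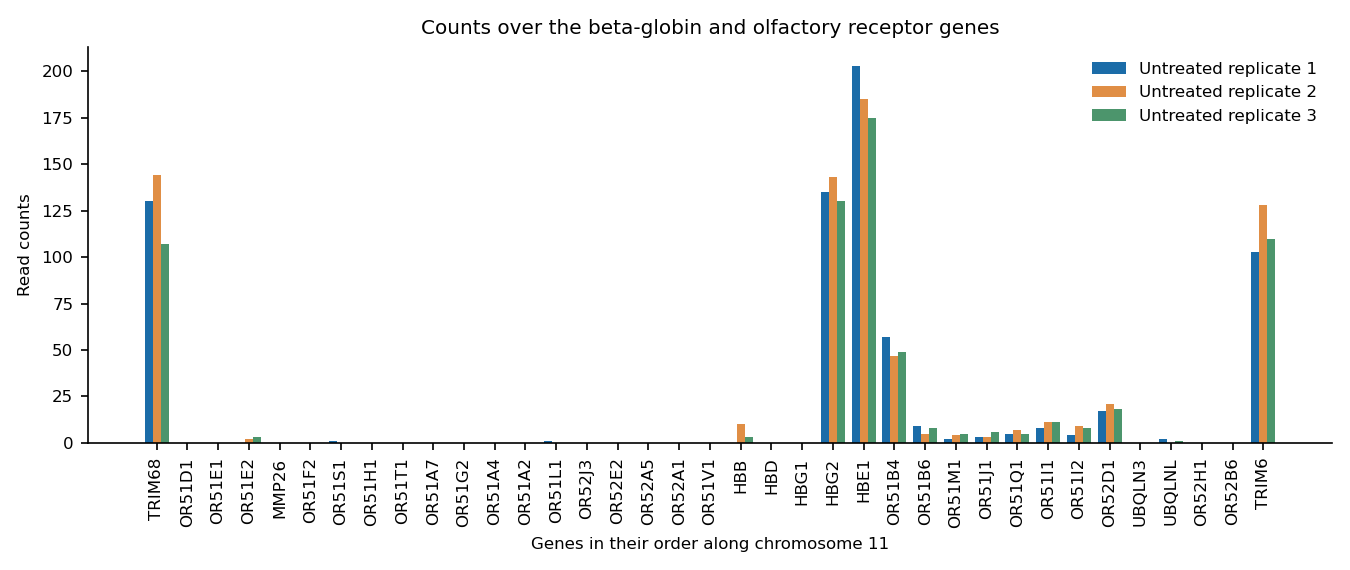
Read counts in the 3 untreated libraries (bars) for the genes from TRIM68 to TRIM6 in their order along chromosome 11. The end genes TRIM68 and TRIM6 had 130, 144 and 107 counts and 103, 128 and 110 counts. Between them, HBB had 0, 10 and 3 counts, and HBD and HBG1 had 0. Counts rise at HBG2, peak at HBE1 with 203, 185 and 175, and go on through 8 olfactory receptor genes to OR52D1. They are absent or at most 3 per library in the receptor genes on either side.

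The spread between libraries was small beside the level for most genes. Across 9141 genes with at least 100 counts on average, the median coefficient of variation was 4.68%, the 95th percentile was 12.1%, and 89.9% of genes stayed under 10%. The median ratio of variance to mean was 1.21; counting error alone puts the mean of this ratio at 1 and its median lower. The median coefficient of variation was 3.05% without replicate 1, 3.96% without replicate 2 and 4.33% without replicate 3. A median over 2 libraries tends to lie lower than one over 3, so these values are to be compared with each other. Without replicate 1 edgeR's common biological coefficient of variation was 1.66%, against 3.50% with all 3 libraries, 3.73% without replicate 2 and 4.49% without replicate 3. The chi-square statistic per degree of freedom between libraries was 2.75 for replicates 1 and 2, 2.13 for 1 and 3 and 1.26 for 2 and 3. No pair was within sampling noise, so the 3 libraries were counted as 3. Genes with the highest ratio of variance to mean were abundant ones: MT-ND5 (150.7), ACTG1 (120), ACTB (103), AHNAK (97.5), GAPDH (69.0) and MT-ND6 (59.7). ACTG1, ACTB and GAPDH were highest in replicate 1, and MT-ND5, MT-ND6 and AHNAK were highest in replicate 2. The highest coefficients of variation belonged to genes near the count minimum. DEDD2 had 107, 83 and 136 counts (28.7%), ARRDC1 had 172, 126 and 94 (26.7%), and PRMT9 had 94, 97 and 136 (26.4%).

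The baseline groups were then set beside the treated libraries to see where untreated cells differ from the rest of the series. All 3 comparisons share the untreated libraries, so they are not independent. Each was tested over 12160 genes with edgeR's quasi-likelihood test and Benjamini-Hochberg adjustment, called at an adjusted p under 0.05. This called 29.1% of genes with IFNγ (15.0% higher and 14.1% lower), 56.1% with radiation (27.9% higher and 28.2% lower) and 62.1% with the combination (30.9% higher and 31.2% lower). With library totals in place of TMM the share of IFNγ calls that were higher was 31.1%, against 51.6% with TMM. A share of a group near these values is not a result about the group. The share called also rose with the untreated level. For genes of 1 to 10, 100 to 1000 and over 1000 CPM it was 19.4%, 40.5% and 54.0% with IFNγ. With radiation it was 36.6%, 73.1% and 86.2%, and with the combination 45.2%, 76.6% and 83.9%. Groups rich in abundant genes are therefore to be read against these higher shares.
Of the 3222 genes with no count in untreated cells, 17 had more than 10 counts over the 3 IFNγ libraries, 10 over the radiation libraries and 31 over the combination libraries. Of the 4394 genes with no count in untreated replicates 2 and 3, the numbers were 27, 24 and 56.

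Receptor tyrosine kinases had 25 of 40 genes tested. With IFNγ 1 was higher and 14 were lower (median log2 fold change -0.27, against -0.01 over all genes tested); with radiation 10 were higher and 4 lower (median 0.23, against 0.01), and with the combination 9 were higher and 7 lower (median 0.18, against 0.00). The receptor higher with IFNγ was MET, at 801, 796 and 790 CPM in IFNγ cells against 452, 467 and 452 CPM in untreated cells (log2 fold change 0.80, SE 0.029, adjusted p = 7.5e-31, edgeR). ROR1, a WNT5A receptor, had 2.67, 3.36 and 2.81 CPM in IFNγ cells against 6.28, 6.21 and 6.09 CPM in untreated cells (log2 fold change -1.07, SE 0.17, adjusted p = 1.3e-06, edgeR). The groups did not overlap for either receptor, but both were picked among called genes by the size of the fold change, which favours this.
Ligands of the TGF-beta superfamily had 10 of 29 genes tested. With IFNγ 0 were higher and 8 lower (median log2 fold change -0.47), with radiation 7 were higher and 2 lower (median 0.57), and with the combination 5 were higher and 2 lower (median 0.34). DESeq2 called 5 lower with IFNγ. GDF15 had 449, 433 and 457 CPM in irradiated cells and 486, 494 and 534 CPM in combination cells, against 90.6, 79.9 and 83.9 CPM in untreated cells (radiation log2 fold change 2.40, SE 0.042, adjusted p = 4.3e-44, edgeR). INHBA, an activin chain, had 29.1, 29.7 and 28.3 CPM in IFNγ cells against 44.0, 48.9 and 42.3 CPM in untreated cells (log2 fold change -0.64, SE 0.072, adjusted p = 2.2e-10, edgeR).

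Plasminogen system genes had 8 of 9 tested. With IFNγ 1 was higher and 5 lower, with radiation 7 were higher and 1 lower, and with the combination 6 were higher and 2 lower, with median log2 fold changes of -0.24, 0.57 and 0.29. PLAU had 456, 472 and 462 CPM in IFNγ cells against 693, 686 and 685 CPM in untreated cells (log2 fold change -0.57, SE 0.029, adjusted p = 2.5e-24, edgeR). PLAT had 413, 406 and 396 CPM in irradiated cells against 161, 157 and 151.3 CPM in untreated cells (log2 fold change 1.37, SE 0.035, adjusted p = 1.2e-38, edgeR).
Mesenchymal markers had 17 of 24 genes tested, with 3 higher and 10 lower with IFNγ, 12 higher and 2 lower with radiation, and 8 higher and 6 lower with the combination (medians -0.20, 0.19 and 0.15). FBN1, the microfibril protein fibrillin, had 378, 346 and 362 CPM in irradiated cells against 188, 197 and 196 CPM in untreated cells (log2 fold change 0.90, SE 0.035, adjusted p = 8.1e-30, edgeR). COL1A1 had 2.87, 3.36 and 1.705 CPM in IFNγ cells against 6.655, 6.11 and 5.58 CPM in untreated cells (log2 fold change -1.20, SE 0.19, adjusted p = 5.2e-07, edgeR).
Laminins had 10 of 12 genes tested. With IFNγ 2 were higher and 4 lower, with radiation 9 were higher and 1 lower, and with the combination 7 were higher and 1 lower (medians -0.09, 0.39 and 0.40). LAMB2 had 110, 107 and 108 CPM in irradiated cells against 58.3, 65.6 and 59.2 CPM in untreated cells (log2 fold change 0.83, SE 0.050, adjusted p = 3.0e-21, edgeR).

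Glycolysis enzymes had 20 of 26 genes tested. With IFNγ 15 were higher and 0 lower (median log2 fold change 0.19), the same numbers as among 20 chaperone genes tested. With library totals in place of TMM, 12 glycolysis enzymes were higher and 0 lower. Radiation gave 4 higher and 10 lower (median -0.07), and the combination 11 higher and 3 lower (median 0.09). The 3 highest called log2 fold changes with IFNγ were those of ALDOC (0.58), PGK1 (0.47) and ENO1. ENO1 had 4007, 3847 and 3765 CPM in IFNγ cells against 2924, 2751 and 2805 CPM in untreated cells (log2 fold change 0.45, SE 0.026, adjusted p = 7.7e-22, edgeR). HK2, the hexokinase of many tumours, had 122, 111 and 110 CPM in irradiated cells against 187, 192 and 210 CPM in untreated cells (log2 fold change -0.77, SE 0.042, adjusted p = 4.5e-23, edgeR).
S100 calcium-binding proteins had 9 of 20 genes tested, with 6 higher and 0 lower with IFNγ, 5 higher and 1 lower with radiation, and 7 higher and 0 lower with the combination (medians 0.32, 0.22 and 0.52). MAGE genes had 14 of 35 tested, and 2 were higher and 2 lower with IFNγ, 6 higher and 1 lower with radiation, and 6 higher and 3 lower with the combination (medians 0.00, 0.14 and 0.11). MAGEA11 had 64.2, 63.2 and 64.2 CPM in IFNγ cells against 33.6, 32.7 and 33.2 CPM in untreated cells (log2 fold change 0.94, SE 0.057, adjusted p = 5.7e-21, edgeR).

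In the globin stretch, HBE1 had 28.2, 27.2 and 30.0 CPM in irradiated cells and 30.5, 28.0 and 26.9 CPM in combination cells, against 19.0, 17.4 and 17.8 CPM in untreated cells (radiation log2 fold change 0.66, SE 0.080, adjusted p = 4.1e-10, edgeR). OR51B4 had 9.57, 12.5 and 10.6 CPM in irradiated cells against 5.34, 4.42 and 4.97 CPM in untreated cells (log2 fold change 1.15, SE 0.14, adjusted p = 8.3e-10, edgeR). With IFNγ, HBE1 had a log2 fold change of -0.17 (SE 0.090, adjusted p = 0.15, edgeR) and OR51B4 one of -0.22 (SE 0.18, adjusted p = 0.40, edgeR), which did not pass the threshold. These genes were named after their values were seen.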

How the data were processed

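Libraries were made from ribosome-depleted total RNA with a stranded kit and sequenced as paired-end reads, per the labels' protocols, although the series text names an mRNA kit instead. The submitters' processing notes list hg19, TopHat2 2.0.13, Cuffdiff 2.2.1, Cufflinks and, for read quality, FastQC 0.11.3. The counting tool, annotation and strand setting behind the table: not given in the sources used here. The values are counts per gene as deposited by the authors, not normalized, in a table whose header is shifted over its first 4 columns. Of 19293 rows, 18 pseudoautosomal copies without counts were dropped, and 27 genes whose symbols had turned into dates kept their Ensembl IDs. Depth was 9675126 to 11010656 counts per library, and limits given for 0 counts cover counting error only.

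CPM were computed in R 4.3.3 with edgeR 4.0.16 TMM factors over all 12 libraries, and RPKM from joined GENCODE 29 exons (99.85% of genes matched). Coding length was taken from GENCODE, a choice made after seeing the data because protein lengths were not given. Comparisons used 1 quasi-likelihood fit of the 12 libraries after filterByExpr (12160 genes), adjusted over all of them; it was tested on simulated data. Replicate numbers did not pair the libraries (correlation of deviations -0.07 to 0.05). Alternatives were DESeq2 1.42.0, library totals without TMM, no filter, a replicate block and leaving out each library. Promoter windows and their build are RefSeq's.

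Members, 25 gene lists and 66 families were chosen with earlier results of these data known. Genes named for a level were the 15 highest by counts and by RPKM and up to 6 per list by RPKM with defining members at 0; for spread, the 6 highest of each measure; for comparisons, up to 3 called members per list by absolute log2 fold change; and NRAS, IDH1, CDKN2A and MTAP. Some genes that this rule names are not reported here. Genes said to be chosen after their values were seen, and DHRS2, ANPEP, other genes named for their promoters or as neighbours, and members with few counts that are not at 0 (such as HSPB1, MMP9, ABCB1 and SOX2) fall outside it and were chosen after their values were seen.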

Additional observations from a re-analysis of the deposited data

How the results depend on the processing

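Calling genes with up to 3 counts silent gave 5592 such genes and left 2025 under 1 CPM, against 3222 and 4395. Over the fits without 1 untreated replicate, genes without a count numbered 3461 to 4394, the median coefficient of variation was 3.05% to 4.33%, the median ratio of variance to mean 0.556 to 1.03 and the biological coefficient of variation 1.66% to 4.49%, each lowest, and the genes without a count most, without replicate 1. These medians over 2 libraries tend to lie lower than those over 3 and are to be compared with each other. With at least 1000 counts and all 3 libraries the median ratio of variance to mean was 2.12. Without mitochondrially encoded genes the top 10, 100 and 1000 genes held 4.46%, 17.2% and 51.5% of counts. Of 530 named levels, 23 moved by more than their SD under library totals and 0 under DESeq2 size factors. Leaving out 1 of 3 libraries cannot move a mean by more than the SD of the 3. Those settings therefore do not test the named levels. For IFNγ, 1051 genes were lower with DESeq2 and 2717 with library totals, against 1715, and the cause was not tested. The other counts of calls stayed within 1.5 times. Replicate numbers only name the libraries, and a replicate block gave 1828 higher and 1697 lower for IFNγ, 3380 and 3424 for radiation, and 3746 and 3795 for the combination. The named calls on MET, ROR1, GDF15, INHBA, PLAU, PLAT, FBN1, COL1A1, LAMB2, ENO1, HK2 and MAGEA11, and on HBE1 and OR51B4 with radiation, held under every alternative tried. Other calls picked by the same rule were lost under some alternatives. These were NT5E, BMP2, INHBB and MAGEB17 with IFNγ, MST1R and MAGEC2 with radiation, and MAGEE1 with the combination. HBE1 with IFNγ passed the threshold under library totals (log2 fold change -0.23). Depth limits 0 counts over the group to at most 0.0963 CPM.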

Other observations

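Excitable-tissue genes were mostly low, with some clear exceptions. Of 97 potassium channel genes 24 reached 1 CPM, and KCNMA1, the large-conductance calcium-activated channel, had 439, 436 and 426 CPM in untreated replicates 1 to 3, far above KCNN4, its intermediate-conductance relative, at 58.5 ± 4.81 CPM (SD, n = 3). Among 56 amine and acetylcholine receptor genes 12 reached 1 CPM, led by the serotonin receptors HTR7 (27.8 ± 1.94 CPM) and HTR1D (26.8 ± 1.33 CPM) and the histamine receptor HRH1 (23.6 ± 0.575 CPM).

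Among caveolins and cavins, tetraspanins and galectins, 4 of 7, 16 of 29 and 3 of 14 genes reached 1 CPM. CAV1, the coat protein of caveolae, averaged 669 ± 32.9 CPM, and LGALS1, a galectin of connective tissue, 596 ± 36.2 CPM, whereas 7 of 14 galectin genes had 0 counts (10 without replicate 1). The tetraspanins CD151 and CD63 averaged 249 ± 15.97 and 204.5 ± 3.99 CPM.

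HBB had 10, 304 and 7 counts in radiation replicates 1 to 3, against 0, 10 and 3 in untreated replicates 1 to 3. Over the same radiation replicates HBG2 had 152, 215 and 175 counts, HBD 0, 3 and 0, HBG1 0, 1 and 0, and OR51B4 95, 125 and 109, each highest in replicate 2, whereas HBE1 had 280, 271 and 309 and was lowest there.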
